A study of Mus musculus with 28 samples.

Results

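Heat shock chaperones were followed in the pituitary gland of 28 C57BL/6J mice through 10 genes: Hspa1a, Hspa1b, Hspa8, Hsph1, Hsp90aa1, Dnajb1, Dnaja1, Bag3, Hspb1 and Hspe1. They are 10 of the 32594 genes in the count table, and the rule that picks them is a list of names that uses no measured value, although the list was drawn up with earlier results of these data known. RNA of the whole gland was sequenced from 16 females and 12 males. Mice were either kept in the home cage or subjected to paradoxical sleep deprivation (PSD, a loss mainly of REM sleep, brought about by platforms standing in water), and were or were not restrained in a tube before death. The control groups (4 females, 4 males) had neither treatment, although every mouse, controls included, had been adapted to the tanks. The restraint groups (4 females, 2 males) stayed in the home cage and were restrained for 20 min, then killed 10 min later. The PSD groups (4 females, 3 males) were deprived for 12 h and killed 18 h after the end of deprivation without restraint. The PSD + restraint groups (4 females, 3 males) had both treatments at the same times. All mice were labelled 8 weeks old. Cage mates shared a tank, the labels do not give the cage, and its part in any difference was not tested.

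Heat shock chaperones keep other proteins folded and refold or hand over those that are not. Heat shock factor 1 is held inactive by chaperones in resting cells and, when unfolded protein draws the chaperones away, it binds heat shock elements in the promoters of these genes and transcribes them within minutes. Hspa1a and Hspa1b are the classical inducible pair, whereas Hspa8 and Hsp90aa1 also serve unstressed cells, and in the pituitary Hsp90 and Hsp70 proteins hold the glucocorticoid receptor in a form that binds hormone. Hspe1, although it is induced with the others, works inside mitochondria, so the set is not wholly cytosolic.

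The libraries held 14024465 to 52948531 counts. Gh of somatotropes, Prl of lactotropes and Pomc of corticotropes and melanotropes took 24.8% to 34.3% of the counts of each mouse. No gene of the anterior pituitary marker list was at 0. The scarcest chaperone still had 206 counts in its lowest mouse, so no member was near the floor of detection, and all 10 passed the filter on low counts. Levels are given as CPM, the counts of a gene scaled to a fixed library size with TMM factors. In RNA of a whole gland, fewer cells of a type and less RNA per cell cannot be told apart.

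Promoter sequences are shown because the members differ in whether an exact match to a short heat shock element motif lies near the start of transcription. RefSeq windows of 300 bases (250 before and 50 after the start, build GRCm38.p6) were matched for 8 of the 10 members, and the motif searched was GAANNTTC or TTCNNGAA on the strand of the gene, which covers both strands because each form is its own reverse complement. Such a match was present in at least 1 window of 7 of the 8 members, and of 17.0% of all 27025 genes with a window. Capitals mark the matches. The first pair, the 250 bases upstream of Hspa1a (chr17:34972157-34972406, minus strand) and of Hspa1b (chr17:34959239-34959488, minus strand), were identical at 247 of 250 bases and carry the same match:
Hspa1a: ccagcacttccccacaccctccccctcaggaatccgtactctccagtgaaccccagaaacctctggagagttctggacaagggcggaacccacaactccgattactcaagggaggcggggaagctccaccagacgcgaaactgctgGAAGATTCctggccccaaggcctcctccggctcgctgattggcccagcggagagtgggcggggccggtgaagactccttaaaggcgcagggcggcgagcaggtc
Hspa1b: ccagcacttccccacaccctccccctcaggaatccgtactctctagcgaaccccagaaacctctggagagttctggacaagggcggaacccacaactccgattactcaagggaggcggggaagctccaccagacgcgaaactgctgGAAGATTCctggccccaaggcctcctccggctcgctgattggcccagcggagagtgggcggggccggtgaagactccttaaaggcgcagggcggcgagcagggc

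Longer elements, in which a match runs on into another so that units of the motif alternate, were present in 2 members, Hspe1 and Hsph1, and in 0.662% of all genes with a window. They are shown with Hspb1, which has a pair of separate matches, and with Bag3, whose match lies after the start. Hsph1 also has a separate match before the start, at -33 or -54 depending on the start site, which is not shown. The stretches are chr1:55088053-55088087 (plus strand) for Hspe1, chr5:149636287-149636316 (minus strand, after the start) for Hsph1, chr5:135887799-135887838 (plus strand) for Hspb1 and chr7:128523603-128523632 (plus strand, after the start) for Bag3:
Hspe1: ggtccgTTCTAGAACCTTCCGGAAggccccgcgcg
Hsph1: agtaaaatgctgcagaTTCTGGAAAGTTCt
Hspb1: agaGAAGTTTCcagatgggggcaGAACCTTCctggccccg
Bag3: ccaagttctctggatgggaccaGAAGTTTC

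Dnajb1 was the member without a match in either of its windows. Its upstream 250 bases (chr8:83607925-83608174, plus strand) are shown because it and Bag3 were the members called most often:
Dnajb1: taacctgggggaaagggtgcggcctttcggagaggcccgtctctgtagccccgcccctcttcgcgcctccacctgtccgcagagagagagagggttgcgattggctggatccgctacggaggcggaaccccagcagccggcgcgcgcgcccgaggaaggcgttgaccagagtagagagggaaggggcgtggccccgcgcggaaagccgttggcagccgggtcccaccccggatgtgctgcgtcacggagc
A match is only a description of letters in the window, and its absence says only that these letters are not there.

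The members differed widely in level at rest. Per kilobase of mean coding transcript length, Hspa8, the constitutive Hsp70 of the cytosol, stood at 567 ± 141 CPM per kb (SD, n = 4) in control females and Hsp90aa1, the inducible Hsp90, followed at 161 ± 33.5. The inducible Hspa1a (4.83 ± 0.741) and Hspa1b (4.74 ± 0.803) were the lowest and did not differ beyond their spread, and neither did the next pair upwards in these females, Bag3 (12.4 ± 3.14) and Dnajb1 (14.3 ± 2.03). Control males gave the same order, with Hspa8 at 450.4 ± 40.1 and Hspa1b at 4.53 ± 0.870 CPM per kb. With the length of the longest transcript in place of the mean, the ranks of Hspa8, Hsp90aa1, Dnajb1, Bag3, Hspa1a and Hspa1b in the control groups stayed as they were, whereas the 4 members between them traded places. From this low base the inducible pair had the widest range across the 28 mice, 15.0-fold for Hspa1a and 14.5-fold for Hspa1b in CPM, against 1.75-fold for Hspe1 and 2.18-fold for Hspa8.

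Read sharing limits which copy a count belongs to. Hspa1a and Hspa1b are neighbours on chromosome 17 (34969190 to 34972156 and 34956436 to 34959238, minus strand, GRCm38), and 61.5% and 55.6% of the 76-base windows along their longest coding transcripts occur in another gene as well, mostly in each other. Their CPM ratio lay between 0.987 and 1.24 in every mouse, and the pair is best read as a single measurement. Shared windows also made up 68.3% of Hspa8 (mostly with the pseudogene Gm15459), 52.9% of Hsp90aa1, 47.1% of Hspb1, 28.8% of Hspe1 and 26.1% of Dnaja1, but 0% of Hsph1, Dnajb1 and Bag3. How reads with several matches were treated is not given in the sources used here.

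**Figure D1:**
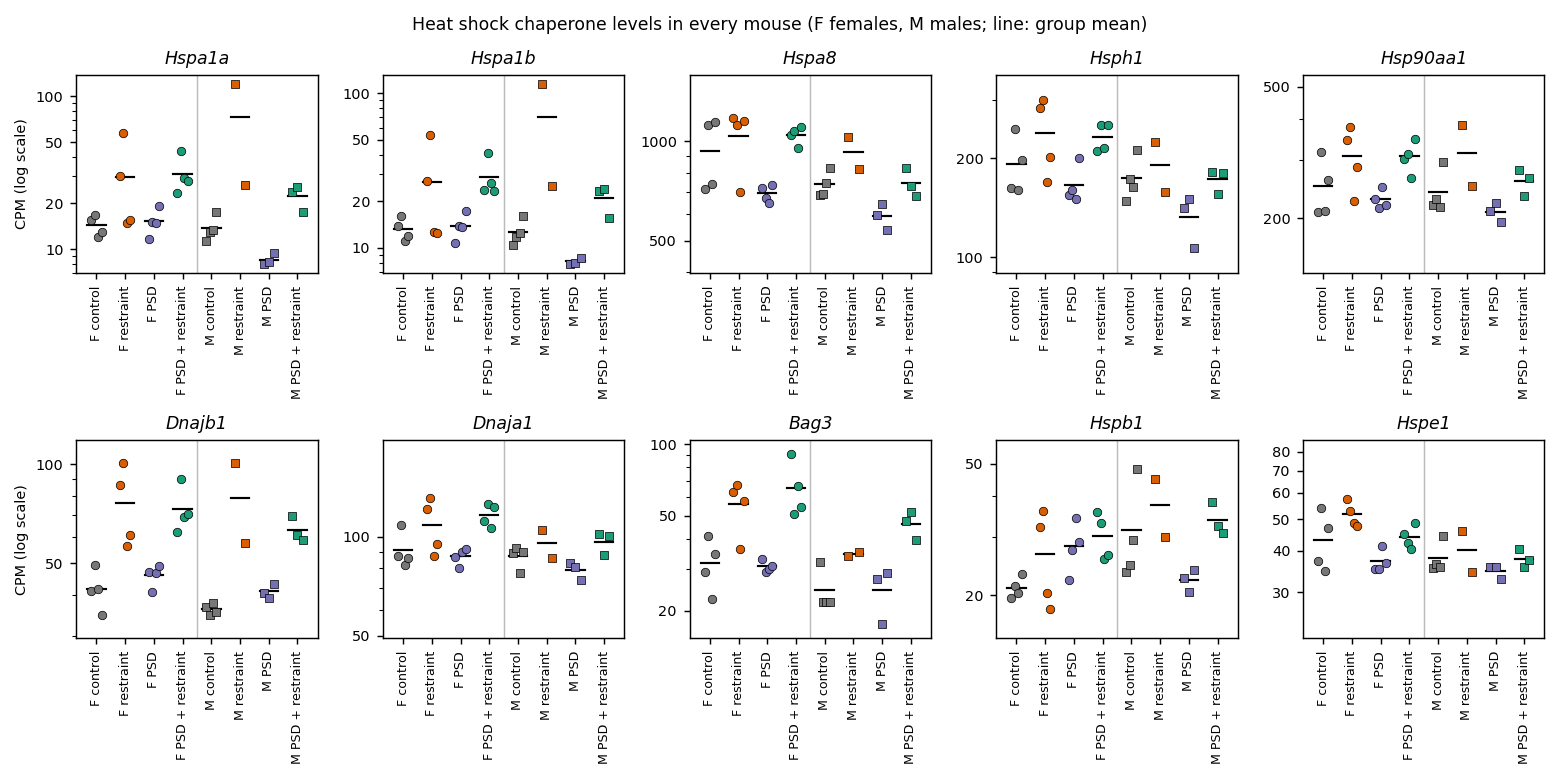
Level of each chaperone in every mouse, as CPM on a log axis that differs between panels; columns are the 4 treatments in females (F, circles) and males (M, squares), and the black line is the group mean. Among restrained mice, Hspa1a and Hspa1b were highest in male restraint mouse 2 (Hspa1a 120.5 CPM) and stayed near control in female restraint mice 3 and 4 (14.7 and 15.5 CPM).

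Restraint alone was compared with home cage controls to ask what 20 min of confinement does to the chaperones. With both sexes in a model, Hspa1a, Hspa1b, the J-domain co-chaperone Dnajb1 and the nucleotide exchange factor Bag3 rose, and the other 6 members had positive log2 fold changes of 0.20 to 0.33 that did not pass. A gene was called when its Benjamini-Hochberg adjusted p over all genes tested was at most 0.05 and its log2 fold change was at least 0.32 in size, a 1.25-fold change. By this rule 4 of 10 members were called among all mice, where 1.14% of 18936 genes were called. Hspa1a and Hspa1b count separately in this and the later counts of members. With the pair summed into 1 gene, 3 were called. The median log2 fold change of the members was 0.29, against 0.00055 over all genes, and all 10 were positive, as were 50.3% of all genes.

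Dnajb1, which delivers clients to Hsp70 and starts its ATPase, gave the clearest response. In control females it stood at 41.1, 49.4, 41.8 and 34.9 CPM, and in restrained females at 86.3, 100.9, 56.3 and 60.8 CPM. In control males it stood at 36.8, 34.8, 38.0 and 35.7 CPM, and in the restrained males, mice 2 and 3, at 100.6 and 57.4 CPM. Restrained and control mice did not overlap in either sex, and female mice 1 and 2 and male mouse 2 were the highest. Its log2 fold change was 0.87 ± 0.16 (SE) in females (edgeR quasi-likelihood, adjusted p = 0.0174), 1.12 ± 0.15 in males (edgeR adjusted p = 0.00709) and 0.96 ± 0.12 in all mice (edgeR adjusted p = 8.47e-06). In females the call was lost without control mouse 1, 3 or 4 or restraint mouse 1 or 2 (edgeR adjusted p = 0.0652 to 0.0794), whereas in all mice it held without any 1 of the 28. In males the value without restraint mouse 2 was 0.67 (edgeR adjusted p = 0.0322).

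Hspa1a, the inducible Hsp70, was more uneven. Control females had 15.6, 16.7, 12.0 and 13.0 CPM, and restrained females 30.3, 57.6, 14.7 and 15.5 CPM, so mice 3 and 4 lay within the control range. Control males had 11.3, 13.0, 13.3 and 17.6 CPM, and the restrained males had 120.5 and 26.5 CPM, both above every control. Fitted log2 fold changes were 1.06 ± 0.34 in females (edgeR adjusted p = 0.241), 2.41 ± 0.39 in males (edgeR adjusted p = 0.0177) and 1.65 ± 0.33 in all mice (edgeR adjusted p = 0.00469). Male restraint mouse 2 set much of this size. Without it the log2 fold change of Hspa1a was 0.95 in males (edgeR adjusted p = 0.241) and 0.92 in all mice (edgeR adjusted p = 0.0427). Hspa1b, sharing its reads, had a log2 fold change of 1.66 ± 0.34 in all mice (edgeR adjusted p = 0.00629), which without that mouse came to 0.91 (edgeR adjusted p = 0.0587). In males its value was 2.46 ± 0.39 (edgeR adjusted p = 0.0177), and 0.99 without that mouse (edgeR adjusted p = 0.239). Both male calls were also lost without control mouse 2 or 3 (edgeR adjusted p = 0.0738 to 0.0770).

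Bag3, which releases nucleotide from Hsp70 and passes its clients to autophagy, stood at 29.0, 41.2, 22.3 and 34.5 CPM in control females and at 62.8, 67.7, 36.2 and 57.6 CPM in restrained females, with mouse 3 inside the control range. In males, controls stood at 31.9, 21.8, 21.8 and 21.8 CPM and the restrained mice at 33.9 and 35.3 CPM, just above the highest control. In the fit, the log2 fold change was 0.71 ± 0.15 in all mice (edgeR adjusted p = 0.00787). Its values of 0.83 ± 0.21 in females (edgeR adjusted p = 0.0907) and 0.51 ± 0.19 in males (edgeR adjusted p = 0.791) did not pass. Without female restraint mouse 3 the female value was 0.99 and passed (edgeR adjusted p = 0.0175), and leaving out the same mouse brought Hsp90aa1 past the limits in all mice, at 0.41 (edgeR adjusted p = 0.0427).

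Within 1 sex, 1 member was called in females (Dnajb1), where 0.543% of genes were called, and 3 in males (Dnajb1, Hspa1a and Hspa1b), where 0.296% were. With Hspa1a and Hspa1b summed, the male count was 2. Groups that did not overlap, with every restrained mouse above every control, were seen for 1 of 10 members in females and for 4 in males. That pattern held for 2.76% of all genes in females and for 6.34% in males, where only 2 restrained mice had to exceed the controls. Fitted to the compared groups alone, female Dnajb1 (edgeR adjusted p = 0.124) and male Hspa1a and Hspa1b (edgeR adjusted p = 0.113 and 0.106) were not called.

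Markers of the neurointermediate lobe were higher in restrained females 1 and 2 than in restrained females 3 and 4. Hspa1a, Hspa1b, Hsph1, Hsp90aa1, Dnajb1, Dnaja1, Hspb1 and Hspe1 divided these mice in the same way. Hsph1, for example, was at 283 and 300 CPM in mice 1 and 2 and at 169 and 201 CPM in mice 3 and 4. Hspa8 did not, with 1151 CPM in mouse 4 beside 1176 and 1119 CPM in mice 1 and 2. Only mouse 3 was apart for Hspa8, at 701 CPM. Bag3 did so less clearly, at 62.8 and 67.7 CPM in mice 1 and 2, 36.2 CPM in mouse 3 and 57.6 CPM in mouse 4. The 3 melanotrope markers (Pcsk2, Pax7 and Oacyl, all present) summed to 2129 and 2590 CPM in mice 1 and 2, but to 1130 and 1162 CPM in mice 3 and 4, against 1193 to 1819 CPM in control females. The 5 posterior lobe markers summed to 76.7 and 88.0 CPM in mice 1 and 2, to 54.8 and 52.5 CPM in mice 3 and 4, and to 48.6 to 66.5 CPM in the controls. In males the higher Hspa1a mouse, mouse 2, had the lower melanotrope sum, 1246 CPM against 1923 CPM in mouse 3. With a score of both lists as a covariate, Dnajb1 stayed called in females at 0.79 (edgeR adjusted p = 0.0339), and female Hspa1a and Hspa1b had 0.77 and 0.67 (edgeR adjusted p = 0.389 and 0.497). The 4 members called in all mice and the 3 called in males stayed called with the score.

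**Figure D2:**
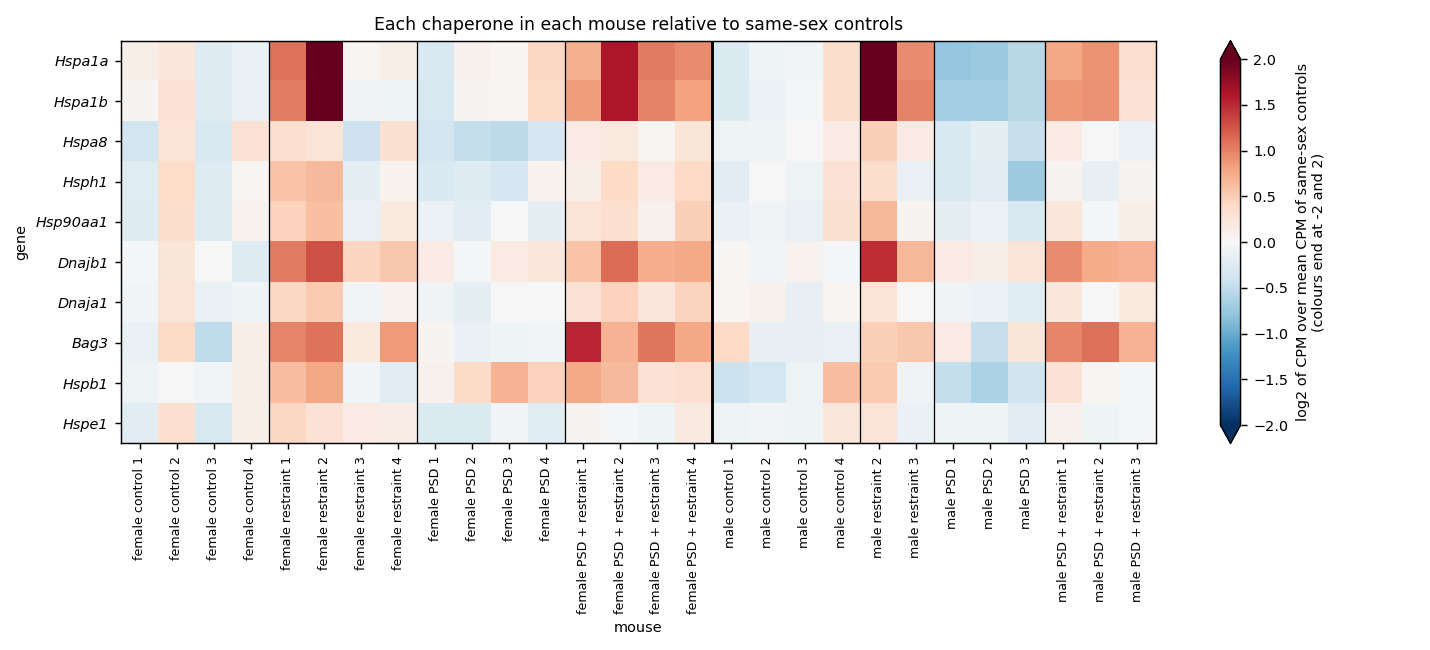
Log2 of each mouse's CPM over the mean CPM of control mice of the same sex, for each chaperone (rows) in each mouse (columns, grouped by sex and treatment); red is above and blue below the control mean, and colours end at -2 and 2. Female restraint mice 1 and 2 and male restraint mouse 2 are red across most rows, while the 4 female PSD + restraint mice are all above the control mean for Hspa1a (23.5 to 43.7 CPM), Dnajb1 and Bag3 (51.2 to 90.9 CPM).

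The members moved together from mouse to mouse. Over the 28 mice the Pearson correlation of log2 CPM between 2 members ranged from 0.208 to 0.997 over the 45 pairs, with a median of 0.682, a description of libraries that share treatment, sex and depth. The mean of the members' z-scores was highest in female restraint mouse 2 (1.74), male restraint mouse 2 (1.52) and female restraint mouse 1 (1.36). Next came female PSD + restraint mice 2, 4 and 1, at 1.157, 0.983 and 0.874. The highest unrestrained mouse was female control mouse 2, at 0.503, and 6 of the 13 restrained mice lay below it. They were male PSD + restraint mice 1, 2 and 3 (0.446, -0.0069 and -0.0285), female restraint mice 4 and 3 (0.236 and -0.312) and male restraint mouse 3 (-0.0758). The lowest 3 of 28 were the male PSD mice, at -1.03, -1.11 and -1.27.

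PSD alone, 18 h after its end, was compared with controls to ask whether the chaperones still differed the next day. No member was called in either sex or in all mice (edgeR). Before adjustment, p was under 0.05 for 2 members in females, 3 in males and 3 in all mice, beside 3567 of 18059 genes, 1617 of 18271 and 3328 of 18936. DESeq2 called 0, 0 and 1 members among 443, 87 and 289 genes. Calls were few over all genes, at 0.0277% in females, 0.00547% in males and 0.671% in all mice. The members' median log2 fold change was -0.17 in all mice, against 0.0068 over all genes, and 2 of 10 members were positive. Melanotrope markers moved here as well, summing to 1718 to 4220 CPM in PSD females against 1193 to 1819 in control females, and to 1737 to 2449 CPM in PSD males against 377 to 1726 in control males. Posterior lobe markers summed to 65.9 to 140.0 CPM against 48.6 to 66.5 in females, and to 48.8 to 54.9 CPM against 21.8 to 66.3 in males. The 6 forebrain markers summed to 43.0 to 236.4 CPM in PSD females against 48.6 to 57.9 in control females. PSD female mouse 1 had both the 236.4 CPM and the 140.0 CPM of posterior lobe markers. In males the forebrain markers summed to 27.5 to 74.1 CPM against 34.3 to 93.7 in controls. The 5 smooth muscle and pericyte markers summed to 74.4 to 77.2 CPM in PSD females against 65.1 to 73.1 in control females. In males they summed to 77.6 to 103.9 CPM against 77.4 to 85.7. Of 7 listed red blood cell markers, 4 were in the count table. These summed to 466 to 1743 CPM in PSD males against 1778 to 3225 in control males. In females they summed to 944 to 1827 CPM against 1275 to 1664. The part of forebrain tissue, smooth muscle cells and red blood cells in the chaperone values was not tested.

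The lowest value was that of Hspa8, the constitutive Hsp70 that folds new proteins and uncoats clathrin vesicles. It stood at 718, 1123, 743 and 1142 CPM in control females and at 722, 672, 649 and 735 CPM in PSD females, so that 2 controls were well above the PSD mice and the groups overlapped. In males, controls stood at 687, 694, 748 and 829.9 CPM and PSD mice at 596, 644 and 539.9 CPM, with no overlap. The log2 fold change in all mice was -0.37 ± 0.11 (edgeR adjusted p = 0.0786), and it passed in DESeq2 (adjusted p = 0.0284), and in edgeR without female control mouse 1 (adjusted p = 0.0408) or female restraint mouse 3 (adjusted p = 0.0373). Hsph1, the Hsp110 that exchanges nucleotide on Hsp70, had a log2 fold change of -0.29 ± 0.12 in all mice (edgeR adjusted p = 0.203).

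In male PSD mice Hspa1a was at 8.04, 8.26 and 9.38 CPM, below every control male, whereas female PSD mice had 11.6, 15.2, 14.8 and 19.1 CPM, around the female controls. Their log2 fold changes were -0.68 ± 0.38 in males (edgeR adjusted p = 0.653) and 0.10 ± 0.35 in females (edgeR adjusted p = 0.902), and the difference between the sexes was 0.79 ± 0.55 (edgeR adjusted p = 0.631). The female direction was not fixed: it turned to -0.46 with the lobe marker score as a covariate and to -0.036 without PSD mouse 4, and Hspa1b turned to -0.56 and -0.052. In males the score left Hspa1a at -0.76. Hspb1, a small heat shock protein that holds unfolded protein and binds actin, differed in sign between the sexes. It had log2 fold changes of 0.43 ± 0.19 in females (edgeR adjusted p = 0.224) and -0.49 ± 0.22 in males (edgeR adjusted p = 0.549), with a difference of 0.93 ± 0.31 (edgeR adjusted p = 0.336). Male control mouse 4 held 48.2 CPM of Hspb1 against 23.4, 24.6 and 29.3 in the other control males, and without it the male value was -0.21. In males, 3 of 10 members (Hspa1a, Hspa1b and Hspa8) had every PSD mouse below every control, a pattern of 5.73% of genes. Dnajb1 had every PSD male above every control, a pattern of 4.69%.

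PSD followed by restraint was compared with untreated controls, the treatment comparison with most calls over all genes. Bag3 and Dnajb1 rose in females, in males and in all mice, and no other member was called. The 2 of 10 members compare with 2.2% of genes called in females, 2.56% in males and 5.46% in all mice. The median log2 fold change of the members was 0.45 in females, 0.13 in males and 0.29 in all mice, against 0.0076, -0.0058 and 0.0013 over all genes.

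Bag3 stood at 90.9, 51.2, 66.5 and 54.5 CPM in PSD + restraint females, all above the controls, and at 47.6, 52.1 and 39.5 CPM in PSD + restraint males, again all above. Its log2 fold change was 1.06 ± 0.21 in females (edgeR adjusted p = 0.0137), 0.94 ± 0.17 in males (edgeR adjusted p = 0.0141) and 0.998 ± 0.14 in all mice (edgeR adjusted p = 3.35e-05). Dnajb1 stood at 62.4, 90.3, 69.1 and 70.8 CPM in females and at 69.7, 60.9 and 58.9 CPM in males, and here too every treated mouse exceeded every control. Its log2 fold change was 0.82 ± 0.16 in females (edgeR adjusted p = 0.0137), 0.80 ± 0.14 in males (edgeR adjusted p = 0.0105) and 0.82 ± 0.11 in all mice (edgeR adjusted p = 1.85e-05). The female calls were lost without PSD + restraint mouse 1 for Bag3 (edgeR adjusted p = 0.0542) and without control mouse 4 for Dnajb1 (edgeR adjusted p = 0.0566). The male calls were lost without PSD + restraint mouse 1 or 2 for Bag3 (edgeR adjusted p = 0.0613 and 0.0751) and without mouse 1 for Dnajb1 (edgeR adjusted p = 0.0622).

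Hspa1a was at 23.5, 43.7, 29.3 and 27.7 CPM in PSD + restraint females, all above the controls, and at 23.5, 25.6 and 17.4 CPM in the males, where the lowest was just below the highest control. The log2 fold change in all mice was 0.97 ± 0.32 (edgeR adjusted p = 0.0518), close to the limit, and Hspa1b gave 0.98 ± 0.34 (edgeR adjusted p = 0.0576). Without male restraint mouse 2, which is in neither group but enters the estimate of the spread, both passed (edgeR adjusted p = 0.00769 and 0.0102). Both also passed without female restraint mouse 3 or 4 or male PSD + restraint mouse 3, and Hspa1a without female PSD mouse 4. Within a sex, Hspa1a passed in females without restraint mouse 2 or 3 (edgeR adjusted p = 0.0170 and 0.0489) and in males without restraint mouse 2 or 3 (edgeR adjusted p = 0.0343 and 0.0339). Hspa1b passed in females without restraint mouse 2 and in males without either restraint mouse. Dnaja1, a J-domain co-chaperone that also helps import into mitochondria, had 0.27 ± 0.08 in all mice (edgeR adjusted p = 0.0227), under the fold limit. Hspb1 had 0.31 ± 0.17 (edgeR adjusted p = 0.263), and 0.47 without male control mouse 4 (edgeR adjusted p = 0.0476). Every PSD + restraint mouse exceeded every control for 5 of 10 members in females and for 2 in males, against 6.82% and 6.97% of genes.

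Cell type markers again differed between the groups. The melanotrope markers summed to 1765 to 2866 CPM in PSD + restraint females against 1193 to 1819 in control females, and to 1789 to 3309 CPM against 377 to 1726 in males. The posterior lobe markers summed to 75.6 to 94.98 CPM against 48.6 to 66.5 CPM in the females, and none was at 0. With the score of both lists as a covariate, the female log2 fold changes were 0.87 for Bag3 (edgeR adjusted p = 0.278) and 0.61 for Dnajb1 (edgeR adjusted p = 0.298), and neither was called, while the calls in males and in all mice held. The 5 smooth muscle and pericyte markers, all present, summed to 77.5 to 89.1 CPM against 65.1 to 73.1 CPM in the females and to 81.5 to 88.8 against 77.4 to 85.7 in the males. Of these, Acta2 had a log2 fold change of 0.95 ± 0.15 and Tagln of 0.87 ± 0.12 in all mice (edgeR adjusted p = 1.06e-04 and 1.26e-05). Fold changes of Myh11, Pdgfrb and Rgs5 are not given, so these values do not stand for the list, whose sums overlapped between the male groups. The 5 macrophage markers summed to 92.2 to 105.5 CPM against 74.7 to 78.9 CPM in the females and to 83.2 to 95.5 against 79.7 to 95.2 in the males. The forebrain markers summed to 52.4 to 158.55 CPM against 48.6 to 57.9 CPM in the females, with the highest sum in PSD + restraint mouse 4. In the males they summed to 28.9 to 47.7 CPM against 34.3 to 93.7 CPM. The part of smooth muscle cells, macrophages and forebrain tissue in the chaperone values was not tested.

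**Figure D3:**
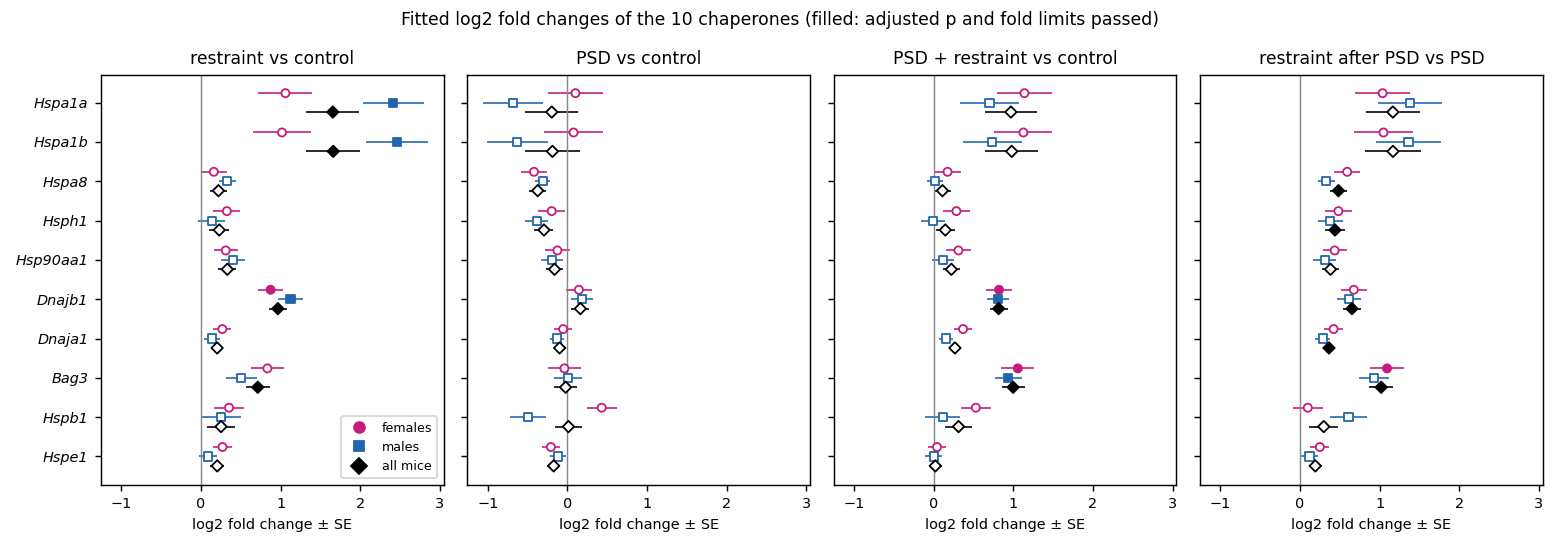
Fitted log2 fold change ± SE of each chaperone in females (circles), males (squares) and all mice (diamonds) for 4 comparisons; filled symbols passed both the adjusted p and the fold limit. Hspa1a and Hspa1b have the largest values and widest errors, Bag3 and Dnajb1 are filled most often, and no symbol is filled for PSD alone.

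Restraint after PSD, the PSD + restraint mice against PSD mice that were not restrained, asks what restraint does in sleep-deprived animals. In all mice 5 of 10 members rose, Bag3, Dnajb1, Hspa8, Dnaja1 and Hsph1, where 2.01% of genes were called. The median log2 fold change of the members was 0.46 in all mice, against -0.0049 over all genes. In females only Bag3 was called, where 0.941% of genes were, and in males none was (edgeR), where 0.285% were. In males 8 members were among the 1883 of 18271 genes with an unadjusted p under 0.05, and DESeq2 called 2 members among 196 genes. Without male restraint mouse 2 or 3, which are in neither group, Hspa1a, Hspa1b and Dnajb1 passed in males (edgeR adjusted p = 0.0109 to 0.0137), and Bag3 passed without male control mouse 1 (edgeR adjusted p = 0.0188). This comparison shares its PSD + restraint mice with the one before, so the values are not separate evidence.

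Groups seldom overlapped here. Every PSD + restraint mouse exceeded every PSD mouse for 8 of 10 members in females, a pattern of 4.23% of genes, and for 9 of 10 in males, a pattern of 7.53%. The exceptions were Hspb1 and Hspe1 in females and Hspe1 in males.

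Hspa8 shows this separation at a high level. PSD females had 722, 672, 649 and 735 CPM and PSD + restraint females 1047, 1072, 957 and 1105 CPM. PSD + restraint males had 829, 732 and 682 CPM, above the PSD males given earlier. The log2 fold change was 0.59 ± 0.16 in females (edgeR adjusted p = 0.120), 0.33 ± 0.11 in males (edgeR adjusted p = 0.289) and 0.48 ± 0.11 in all mice (edgeR adjusted p = 0.00964). Against untreated controls the same PSD + restraint mice gave 0.11 ± 0.10 in all mice (edgeR adjusted p = 0.552). For restraint after PSD, the female value passed without restraint mouse 3 (edgeR adjusted p = 0.0318).

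Hsph1 was at 154, 159, 151 and 200.2 CPM in PSD females and at 210.1, 251, 214 and 251 CPM in PSD + restraint females. PSD males had 141, 150.0 and 107 CPM and PSD + restraint males 181, 156 and 180.5 CPM. The groups did not overlap, but PSD female mouse 4 and PSD + restraint male mouse 2 were close to the other group. The log2 fold change in all mice was 0.44 ± 0.12 (edgeR adjusted p = 0.0459), and leaving out single mice gave adjusted p from 0.0287 to 0.10, with the call lost in 15 of 28 cases.

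Dnaja1 was at 86.5, 80.4, 89.99 and 91.4 CPM in PSD females and at 111, 125.4, 106 and 123 CPM in PSD + restraint females. Its log2 fold change in all mice was 0.36 ± 0.08 (edgeR adjusted p = 0.00722). For Dnajb1 the value was 0.65 ± 0.12 (edgeR adjusted p = 0.00112), and the female value of 0.68 ± 0.16 (edgeR adjusted p = 0.0646) passed without restraint mouse 2 or 3 (edgeR adjusted p = 0.0304 and 0.0266). For Bag3 it was 1.02 ± 0.15 in all mice (edgeR adjusted p = 1.06e-04) and 1.09 ± 0.21 in females (edgeR adjusted p = 0.0168), where the call was lost without PSD mouse 2 or 3 or PSD + restraint mouse 1 (edgeR adjusted p = 0.0591 to 0.0671).

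Among the members that were not called, Hsp90aa1, the inducible Hsp90 that matures kinases and steroid receptors, was at 215 to 249 CPM in PSD females and 266 to 348 CPM in PSD + restraint females. Its log2 fold change in all mice was 0.38 ± 0.11 (edgeR adjusted p = 0.0564), and it passed without female control mouse 2, female restraint mouse 3, male control mouse 4, male restraint mouse 2 or male PSD + restraint mouse 2 (edgeR adjusted p = 0.0305 to 0.0482). Hspa1a and Hspa1b had 1.17 ± 0.34 and 1.17 ± 0.35 in all mice (edgeR adjusted p = 0.0590 and 0.0714), with every restrained mouse above every unrestrained mouse in both sexes. Both passed without male restraint mouse 2 (edgeR adjusted p = 0.00306 and 0.00499), which is in neither group, and without female restraint mouse 3 or 4. Hspa1a also passed without female PSD mouse 4 or male PSD + restraint mouse 3. Hspb1 and Hspe1, the cap of the mitochondrial Hsp60 chamber, had 0.30 ± 0.18 (edgeR adjusted p = 0.515) and 0.19 ± 0.08 (edgeR adjusted p = 0.284). The melanotrope markers overlapped between these groups, at 1718 to 4220 CPM in PSD females and 1765 to 2866 CPM in PSD + restraint females. Smooth muscle and pericyte markers did not overlap in females, at 74.4 to 77.2 CPM after PSD and 77.5 to 89.1 CPM after PSD + restraint. In males they did, at 77.6 to 103.9 CPM and 81.5 to 88.8 CPM. The part of these cells in the chaperone values was not tested.

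Whether sleep deprivation altered the response to restraint was asked by the interaction of the treatments, and by PSD + restraint mice against mice with restraint alone. No gene was called for the interaction (0%) in females, males or all mice by edgeR or DESeq2, while 743 genes had an unadjusted p under 0.05 in all mice. No member had an unadjusted p under 0.05 for it in females or in all mice, and 1 had in males. For Hspa1a the interaction in all mice was -0.49 ± 0.47 on the log2 scale (edgeR adjusted p = 1.0), and it turned to 0.25 without male restraint mouse 2. For PSD before restraint no member was called in females (0.0332% of genes), males (0.00547%) or all mice (0.0951%). DESeq2 called 107, 121 and 65 genes, none of them a member. Unadjusted p was under 0.05 for 0, 3 and 1 members. In males Bag3 had every PSD + restraint mouse above every mouse with restraint alone, a pattern of 12.7% of genes. Hspa1a and Hspa1b had every one below, a pattern of 13.7%. In females all members overlapped. The comparison has 2 restrained males on one side and 1 of them is the highest Hspa1a mouse.

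Females and males were compared over all treatments. Bag3 was 1.37-fold higher in females (log2 0.46 ± 0.11, edgeR adjusted p = 0.00154) and was the only member called, where 14.9% of genes were called. Hspa8 (0.31 ± 0.08, edgeR adjusted p = 0.00262), Hsph1 (0.30 ± 0.09), Hspe1 (0.20 ± 0.06) and Dnaja1 (0.16 ± 0.06) passed the adjusted p but not the fold limit. Hspa8 reached both limits without female control mouse 1 or 3, female restraint mouse 3, male restraint mouse 2 or male PSD mouse 2 (log2 0.32 to 0.34), and Hsph1 without male control mouse 4 or male restraint mouse 2 (log2 0.33 and 0.32). Hspa1a was level, at 0.025 ± 0.24. The responses to restraint, to PSD and to PSD + restraint did not pass a test of a sex difference for any gene (0% each in edgeR). DESeq2 called 0, 24 and 10 genes for the 3 tests, none a member, and 2, 1 and 0 members were among the 804, 2038 and 1363 genes with an unadjusted p under 0.05. For Hspa1a the restraint response was 1.36 ± 0.56 lower in females on the log2 scale, a log2 difference of -1.36 (edgeR adjusted p = 1.0), and 0.12 in the other direction without male restraint mouse 2.

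**Figure D4:**
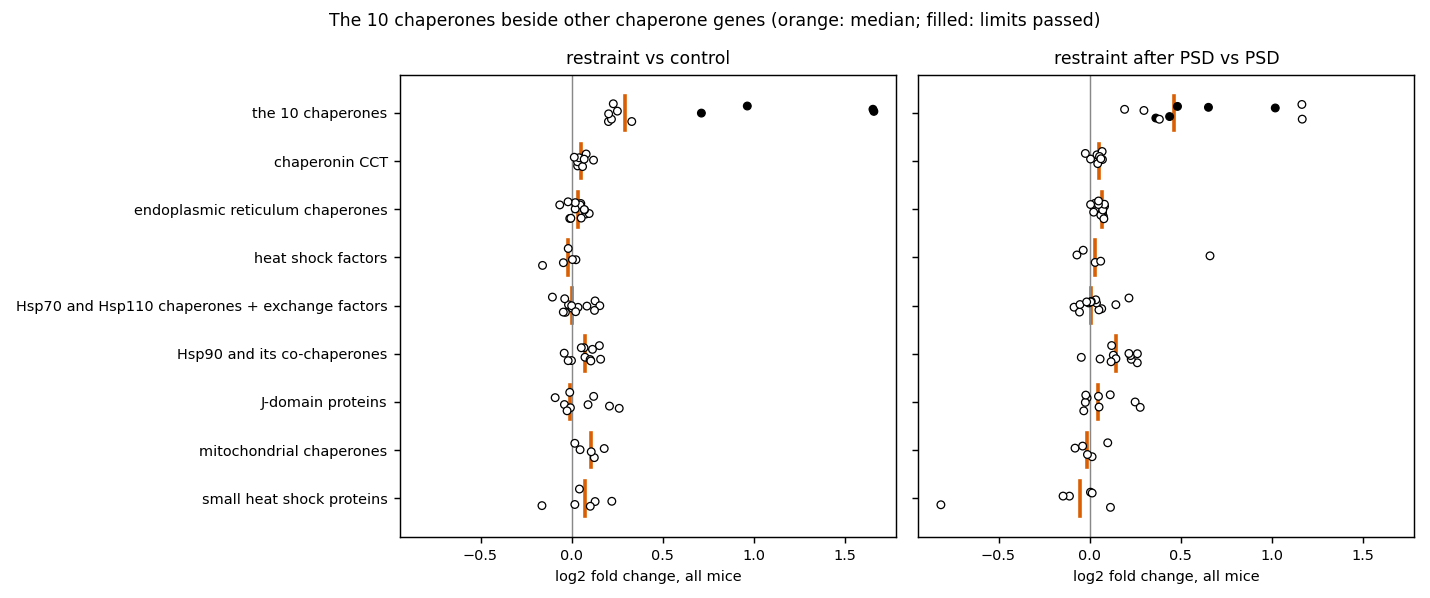
Log2 fold change in all mice of the 10 chaperones and of genes on 8 other chaperone lists, for restraint against control and for restraint after PSD; each circle is a gene, filled circles passed both limits and the orange line is the median. Filled circles are found only in the top row, and the medians of the other lists lie between -0.053 and 0.14.

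Other genes of the heat shock system were not called by edgeR in the treatment comparisons. Of 60 further genes on lists of Hsp70 partners, J-domain proteins, Hsp90 co-chaperones, the CCT chaperonin, small heat shock proteins, mitochondrial chaperones and heat shock factors, 57 were tested in each fit, and none was called (edgeR) for any treatment comparison in females, males or all mice. Between 0 and 18 of them had an unadjusted p under 0.05 in a comparison, 8 after restraint and 12 for restraint after PSD in all mice, where DESeq2 called 0 in both. Their median log2 fold change was 0.041 after restraint and 0.041 for restraint after PSD. In females DESeq2 called 1 of them for restraint after PSD, the J-domain protein Dnajb4 (log2 0.36, adjusted p = 0.0308), and 1 for PSD before restraint, the mitochondrial Hsp70 exchange factor Grpel1 (log2 -0.39, adjusted p = 0.0278). Between females and males, over all treatments, 3 of the 57 were called by edgeR and by DESeq2. The small heat shock proteins Hspb8 (log2 0.91 ± 0.16, edgeR adjusted p = 4.12e-05) and Cryab (0.47 ± 0.07, edgeR adjusted p = 8.27e-06) were higher in females, and Bag2, which exchanges nucleotide on Hsp70, was lower (-0.79 ± 0.08, edgeR adjusted p = 4.94e-09). For restraint after PSD in all mice, 4 passed the adjusted p below the fold limit, among them Chordc1 (log2 0.23 ± 0.06) and Ptges3 (0.26), both partners of Hsp90, and the J-domain proteins Dnajb2 (0.25) and Dnajb4 (0.28). Hsp90 and its co-chaperones were positive for 10 of 11 genes there, with a median of 0.14, and for 0 of 11 after PSD alone, with a median of -0.17. Both comparisons use the same PSD mice, on opposite sides. Against untreated controls, PSD + restraint in all mice was positive for 5 of these 11 genes, with a median of -0.0022. After PSD alone 13 of all 57 were positive, against 52.0% of genes, among them 0 of 8 CCT subunits and 3 of 13 Hsp70 partners, as was 1 of 14 chaperones of the endoplasmic reticulum. Of 14 chaperones of the endoplasmic reticulum, none was called for any treatment comparison by edgeR or DESeq2, 0 to 3 had an unadjusted p under 0.05, and 14 of 14 were positive for restraint after PSD with a median of 0.070 in all mice. For PSD + restraint against untreated controls, 3 of these 14 were positive in all mice, with a median of -0.040.

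The genes most like the members over the 28 mice were AK217986 (r = 0.915 with the members' mean z-score), Chordc1 (0.872), Ahsa2 (0.846), AK220016 (0.831) and AK213609 (0.826), out of 15452 genes with a mean of at least 1 CPM. Chordc1 and Ahsa2 encode partners of Hsp90, and the AK names are cDNA clones listed as genes in the count table.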

How the data were processed

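Per the labels and the study's methods, whole-pituitary libraries (stranded mRNA, paired 76-base reads) were aligned by the authors to mm10 and reads were counted on UCSC gene models with HTSeq 0.9.1. The deposited table holds raw counts per gene, with 1 library per mouse. A second deposited table, the same counts divided by 1 factor per mouse, was not used. Analyses used edgeR 4.0.16 in R 4.3.3 (filterByExpr, TMM factors, glmQLFit and glmQLFTest, Benjamini-Hochberg adjustment over all genes tested). The model held PSD, restraint and their interaction, for 16 females, for 12 males and for all 28 mice with sex added, and tested 18059, 18271 and 18936 genes. Sex differences of a response used 8 group means. A gene was called at an adjusted p of at most 0.05 and an absolute log2 fold change of at least 0.32 (1.25-fold). SE was derived from the F statistic. CPM used TMM factors. Log2 CPM was taken with 2 as the prior count.

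The members and the lists of other genes were chosen with earlier results of these data known. Named were every member in the comparisons, called genes of the lists (up to 5 a comparison), list genes called by DESeq2 or past the adjusted p alone where stated (chosen after their values were seen), and the 5 genes most like the members. Library totals of 14024465 to 52948531 counts left every member with at least 206 counts. No libraries of the same group were duplicates: chi-square per degree of freedom within groups was at least 7.52. Pairs of libraries from different groups were not checked in this way. Mice were separate animals. Scripts were tested on simulated counts. Alternatives were DESeq2 1.42.0 (limma 3.58.1 was loaded by edgeR), other scalings and filters, a fit to just the compared groups, replicate number as a block, a score of the neurointermediate lobe markers as a covariate, Hspa1a and Hspa1b summed, and each mouse left out. Transcript lengths came from GENCODE, and promoters from RefSeq, both GRCm38.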

Additional observations from a re-analysis of the deposited data

Results flagged for a closer look

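In 4 of 50 groups of 4 mice, 1 mouse lay further from the others than Dixon's 95% critical value allows. The 50 are members followed in the same mice and correlated with each other (median r = 0.682), so this count cannot be set against chance. Hspa8 was at 701 CPM in female restraint mouse 3, against 1119 to 1176 CPM in the other restrained females. Male control mouse 4 held 296 CPM of Hsp90aa1 and 44.4 CPM of Hspe1, above the other control males at 216 to 228 and at 35.5 to 36.6 CPM. Bag3 was at 31.9 CPM in male control mouse 1 and at 21.8 CPM in each of the other 3 control males.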

How the results depend on the processing

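Of 738 log2 fold changes recomputed under the planned settings other than leaving out mice, 689 kept direction and side of the limits, 14 lost the call, 33 gained it and 2 reversed. The reversed values, in females after PSD with the lobe marker score as a covariate, were -0.46 for Hspa1a and -0.56 for Hspa1b.

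The number of members called moved as follows. DESeq2 gave 2 for restraint, 4 for PSD + restraint and 4 for restraint after PSD in females, 2 for restraint after PSD in males, and 1 for PSD, 4 for PSD + restraint and 8 for restraint after PSD in all mice. With only the groups compared, the counts were 0, 5 and 6 in females for those 3 comparisons, 1 for restraint and 3 for restraint after PSD in males, and 4 and 8 in all mice for PSD + restraint and restraint after PSD. With the lobe score, they were 0 and 2 in females for PSD + restraint and restraint after PSD, 1 for restraint after PSD in males, and 2 for females against males. With no filter on low counts, restraint after PSD in males gave 1. With no fold limit, females against males gave 5.

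Replicate numbers did not pair the mice: 10 of 39 same-numbered pairs deviated together at r above 0.1 (range -0.43 to 0.46). With the replicate block, members called came to 0 for restraint and 0 for PSD + restraint in males and 0 for females against males.

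Leaving out 1 mouse at a time gave, in females, 0 to 2 members for restraint, 1 to 4 for PSD + restraint and 0 to 3 for restraint after PSD; in males 1 to 3, 0 to 4 and 0 to 3, with 0 to 2 for PSD before restraint; in all mice 3 to 5, 2 to 4 and 4 to 8, with 0 to 1 for PSD and 1 to 3 for females against males. Reversed log2 fold changes ranged, for PSD in females, from -0.036 to 0.20 (Hspa1a) and from -0.052 to 0.18 (Hspa1b). For PSD + restraint in all mice Hspe1 ranged from -0.027 to 0.076. The sex difference of restraint ranged from -2.08 to 0.12 (Hspa1a) and from -2.17 to 0.029 (Hspa1b), and the interaction from -0.67 to 0.25 and from -0.68 to 0.26. With few restrained males, 1 mouse can decide a male call. Settings not named here left every count within 1.5 times. The cause of these shifts was not tested.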
